A study of Mus musculus with 120 samples.

Results

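The nuclear genes of the mitochondrial respiratory chain were followed in mouse embryonic stem (ES) cells in which 1 gene at a time was overexpressed. The members were chosen by name: every probe set assigned to a single gene whose symbol starts with Nduf, Uqcr, Cox4, Cox5, Cox6, Cox7, Cox8 or Atp5, or is Sdha, Sdhb, Sdhc, Sdhd or Cycs, leaving out Ndufa4l2. This gave 182 probe sets of 90 genes among the 45101 probe sets of the larger array (Mouse430_2), and 159 probe sets of 85 genes among the 22690 of the smaller one (Mouse430A_2). By role they were 77 probe sets of 35 complex I genes, 9 of 4 complex II genes, 16 of 8 complex III genes, 4 of the cytochrome c gene Cycs, 32 of 16 complex IV genes and 31 of 17 complex V genes. A further 13 probe sets of 9 genes carry the same prefixes but code for assembly factors or related proteins, such as Ndufaf1 and Cox7a2l, and were kept as a group of their own. The rule used no measured value.

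The respiratory chain carries electrons from NADH and succinate through complexes I and II to complex III, through cytochrome c to complex IV and on to oxygen, and complex V uses the proton gradient made on the way to produce ATP. Most subunits come from nuclear genes and a few from the mitochondrial genome, so both genomes have to supply matched parts. Nuclear respiratory factor 1 (NRF1), GABP (nuclear respiratory factor 2, whose DNA-binding subunit is Gabpa), estrogen-related receptors (ERR) and YY1 are known regulators of many of these nuclear genes. Some complex IV subunits exist as a widely used form and a form restricted to certain tissues: Cox7a1 is the heart and skeletal muscle form of its subunit and Cox6b2 the testis form.

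The 20 experiments each used 3 clones of the line EBRTcH3 (EB3), an ES cell line with a tetracycline-repressed (Tet-off) expression cassette at the ROSA26 locus, so all cells share 1 parental line. Each clone carried the coding sequence, tagged with 3xFLAG, of 1 gene: Aire, Bach1, Dscr1, Erg, Ets2, Gabpa, Nrip1, Olig1, Pknox1, RIKEN-1810007M14, Hunk, Dyrk1a, Snf1lk, Pdxk, Ripk4, Pfkl, Olig2, Sim2, Zfp295 or Runx1. The sequence was human for Zfp295, Dyrk1a and Snf1lk and murine otherwise. Uninduced cells were kept with 1 µg/ml of tetracycline (Tc), and induced cells had been without Tc for 48 h in the Aire and Pdxk experiments, 39 h in Hunk, Ripk4 and Sim2, and 24 h in the other 15. With 3 arrays in each state this made 120 arrays, of which the 6 of Runx1 were on the smaller array. Values are log2 intensities that had been normalised within each experiment, so a change is given as induced minus uninduced log2 within a clone, and no fold is taken between the levels of different probe sets. Where a probe set is called bright or dim, its level is placed only against the quartiles of all probe sets.

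The 10 ES cell marker genes, Pou5f1, Nanog and Sox2 among them, were all above the upper quartile of all probe sets in each of the 19 experiments on the larger array, while 0 to 2 of 7 primitive endoderm genes and 0 to 1 of 7 fibroblast genes were. The transgenes hold only coding sequence, and many probe sets target other parts of a transcript. The paper itself measured the induction of its clones by quantitative PCR. It also reports a band of the tagged protein on western blots for all genes it tested so, Gabpa, Nrip1 and Pknox1 among them. Within their own experiments, of the probe sets for the overexpressed genes only 2 of Runx1 rose (1.13 ± 0.25 and 1.39 ± 0.31, log2 change ± SE, limma adjusted p = 0.0356 and 0.0375). A probe set of Rcan1, the gene labelled Dscr1, changed by 2.14 ± 0.18 in the Dscr1 experiment and 1 of Pdxk by 0.67 ± 0.14 in Pdxk, in all 3 clones. Both missed that test (adjusted p = 0.486 and 0.0948) and passed against the other experiments (1.78e-12 and 0.000124). The 3 probe sets of Pknox1 were lower in all 3 clones of the arrays labelled induced (changes of -1.21 to -1.47, adjusted p = 0.771 or higher) and also lower against the other experiments (4.42e-05 or less), so the direction in that experiment rests on its labels. Likewise 1 probe set of Bach1 was lower in all 3 clones of its experiment (-0.51, adjusted p = 0.986) and against the others (0.012). A probe set of Nrip1, given below, was lower in the same way.

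Of the 90 genes, 75 had at least 1 promoter window (250 bases before to 50 after an annotated start) in the RefSeq set for GRCm38.p6. The core CCGGAAG of the GABP and ETS motif was found, on either strand, in 19 of these 75 genes (25.3%) and in 9.93% of all 27025 genes with a window. The NRF1 motif GCGCATGC was in 12 (16% against 3.05%), the ERR element AAGGTCA in 8 (10.7% against 5.38%) and the YY1 core AAGATGG in 11 (14.7% against 7.28%). Both strands of GCGCATGC can overlap in 1 site and were counted once per gene. At least 1 of the 4 motifs was in 39 of the 75 genes (52%) and in 23.1% of all genes. Such a match is a description of letters and not a binding site. The 250 bases before the start of 5 members to which the results below return are shown 5′ to 3′ on the strand of the gene, with motif letters in capitals. The windows of Sdhb and Ndufaf1 hold the GABP core, and those of Ndufa6 and Sdhb the NRF1 motif. None of the 4 motifs lies before the start of Cox7a1 or Cox6b2, the members whose changes varied most. In Sdhb the capitals mark NRF1, since its GABP core begins 6 bases past the start, outside the stretch shown. The windows are chr4:140961021-140961270 (plus strand) for Sdhb, chr2:119662835-119663084 (minus) for Ndufaf1, chr15:82354292-82354541 (minus) for Ndufa6, chr7:30183921-30184170 (plus) for Cox7a1 and chr7:4753095-4753344 (minus) for Cox6b2.
Sdhb: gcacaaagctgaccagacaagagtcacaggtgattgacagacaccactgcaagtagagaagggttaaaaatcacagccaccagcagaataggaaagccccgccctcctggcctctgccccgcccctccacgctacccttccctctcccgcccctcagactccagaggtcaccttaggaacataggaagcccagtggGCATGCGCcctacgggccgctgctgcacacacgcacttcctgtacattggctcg
Ndufaf1: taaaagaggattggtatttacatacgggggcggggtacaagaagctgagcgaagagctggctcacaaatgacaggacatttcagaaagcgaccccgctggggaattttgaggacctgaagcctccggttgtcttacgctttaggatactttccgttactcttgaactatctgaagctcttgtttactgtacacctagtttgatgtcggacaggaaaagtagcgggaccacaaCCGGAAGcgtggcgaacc
Ndufa6: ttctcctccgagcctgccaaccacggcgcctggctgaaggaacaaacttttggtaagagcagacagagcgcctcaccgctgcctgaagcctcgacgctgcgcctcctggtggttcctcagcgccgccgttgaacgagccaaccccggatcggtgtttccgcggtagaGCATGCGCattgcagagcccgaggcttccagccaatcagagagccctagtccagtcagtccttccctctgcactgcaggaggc
Cox7a1: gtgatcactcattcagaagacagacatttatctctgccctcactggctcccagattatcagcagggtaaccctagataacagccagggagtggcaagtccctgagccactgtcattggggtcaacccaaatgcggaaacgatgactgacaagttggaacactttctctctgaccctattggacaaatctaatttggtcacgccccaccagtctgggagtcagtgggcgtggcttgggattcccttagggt
Cox6b2: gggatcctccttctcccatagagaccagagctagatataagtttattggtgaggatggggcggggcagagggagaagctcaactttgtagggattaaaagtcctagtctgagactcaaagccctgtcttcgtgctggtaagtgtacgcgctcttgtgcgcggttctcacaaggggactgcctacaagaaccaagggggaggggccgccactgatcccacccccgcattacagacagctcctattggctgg

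As a group the respiratory chain genes moved little in any of the 20 experiments. The median change of the members lay between -0.07 (Gabpa) and 0.07 (Sim2) log2, and it was above 0 in 8 experiments. In 17 of 20 experiments no member passed the test of induced against uninduced arrays (limma with the clone as a block, adjusted p below 0.05 over all probe sets). Among those 17, the test called 0% of all probe sets in Dscr1, Ets2, Gabpa, Olig1, Pknox1, RIKEN-1810007M14, Dyrk1a, Snf1lk, Pfkl and Zfp295. It called 0.00222% in Bach1, 0.00665% in Hunk, 0.0177% in Ripk4, 0.135% in Nrip1, 0.264% in Pdxk, 1.76% in Olig2 and 16.2% in Runx1. At an unadjusted p below 0.05 the same limma fits gave 1 to 17 members an experiment (0.549% to 9.43%), below the share of all probe sets (2.24% to 32.2%) in each of the 17. A test of each probe set by itself, with no shared variance, gave 0 members in 16 of these 17 experiments and 3 in Runx1 after adjustment. In Runx1, the experiment with the highest share of changed probe sets, 0 of the 159 members passed beside that 16.2%, and 15 did without adjustment. The median of all probe sets there was -0.03 and that of the members 0.05. In simulated data with the spread of Erg, Gabpa or Sim2, the test of induced against uninduced arrays recovered 0% of changes of 0.25 log2. Of changes of 0.5 log2 it recovered 16%, 0% and 0% (50 of 45100 probe sets changed at each size). So few changed probe sets make the adjustment stricter than in the real Erg fit, which called 12% of all probe sets. That fit called members at changes of -0.33, so the simulation does not describe it. Where few probe sets changed, small changes of members can have been missed.

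**Figure D1:**
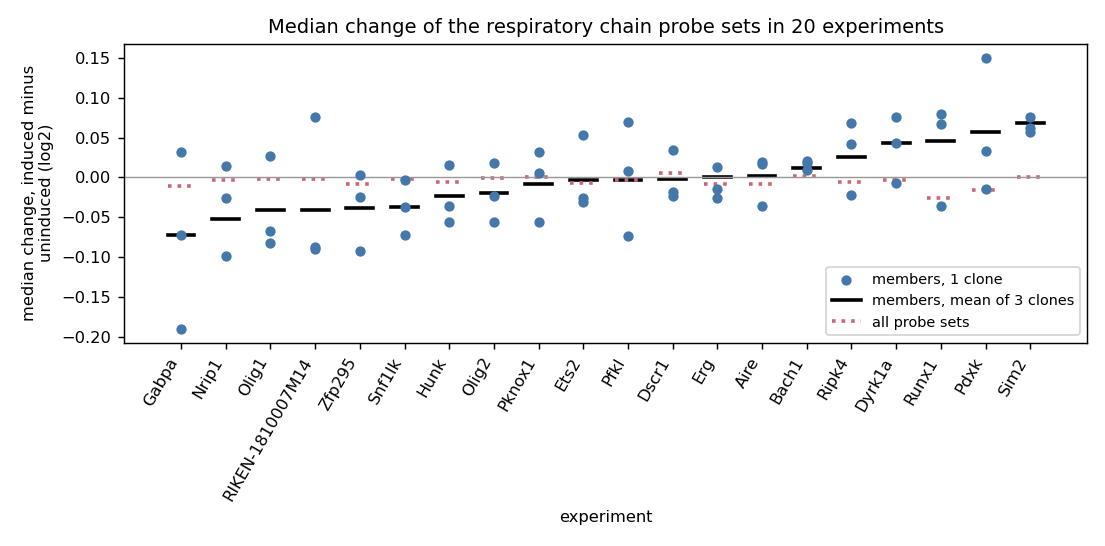
Median log2 change (induced minus uninduced) of the respiratory chain probe sets on the y axis for each experiment on the x axis, ordered by that median. Points are the 3 clones, the black line is the median of the mean changes and the dotted line the median of all probe sets. The medians run from -0.07 in Gabpa to 0.07 in Sim2, and the clones of 1 experiment often lie on both sides of 0.

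Clone medians had 1 sign in only 3 of the 20 experiments, Bach1, Snf1lk and Sim2. In Sim2 they were 0.08, 0.06 and 0.06. In Gabpa they were 0.03, -0.19 and -0.07, and in Pdxk 0.15, -0.01 and 0.03, so that a single clone gave most of the shift in both. The clones are paired by replicate number, which the Gabpa arrays bore out only weakly. Their deviations from the group means correlated above 0.1 in 1 of 3 same-numbered pairs. A member had a median SD over clones of 0.17 in Gabpa, and of 0.08 to 0.18 in the other experiments.

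By complex, the medians stayed within 0.2 log2 of 0 in every experiment except for the assembly group in Sim2, at 0.28. Complex II, which feeds electrons from succinate, had its lowest median in Nrip1 (-0.18) and its highest in Erg (0.13). The 4 probe sets of cytochrome c had a median of 0.16 in Erg, -0.08 in Nrip1 and -0.15 in Sim2, where complex II stood at 0.10. Complex V, the ATP synthase, varied least, from -0.07 to 0.05. These are medians of few probe sets and carry no test. Within complex II, Sdhb, the iron-sulfur subunit, ranged from -0.26 in Gabpa to 0.21 in Sim2. The membrane anchors Sdhc and Sdhd ranged from -0.14 to 0.24 and from -0.30 to 0.16 over 2 probe sets each, and none of those 4 probe sets differed among the experiments in the F test described below (adjusted p = 0.483 or higher).

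**Figure D2:**
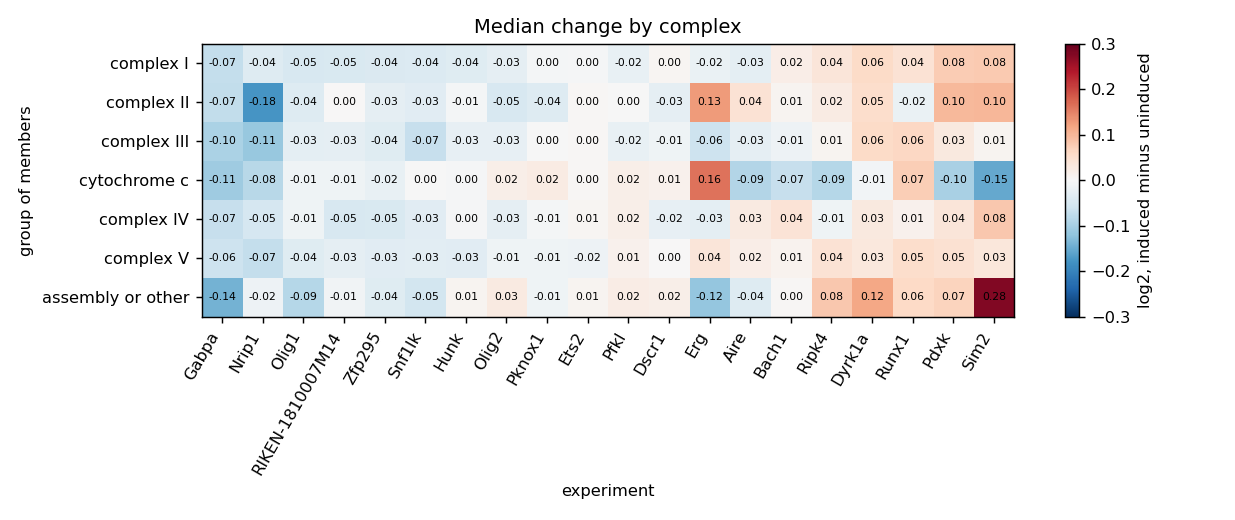
Median log2 change of the members in each complex (rows) and experiment (columns, ordered by the median of all members), printed in each cell and coloured from -0.3 to 0.3. Most cells lie close to 0, and the highest value is 0.28 for the assembly group in Sim2.

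Across the 19 experiments on the larger array the members varied less than other probe sets. The SD of a probe set's change over experiments had a median of 0.09 for the members, against 0.12 for all probe sets and 0.13 for those above the upper quartile of level, where 143 of the 182 members lie. Of 3458 member values, 12 were past 0.5 log2 in size, and they came from 6 probe sets. For 118 probe sets all 19 changes were within 0.25. Cox4i1, the common form of a nuclear-encoded complex IV subunit, was among the steadiest, with changes from -0.06 to 0.09 (SD 0.04). By contrast Cox7a1 had an SD of 0.47 and Cox6b2 of 0.32, the highest of all members, and no other member was above 0.3, beside 3.9% of all probe sets.

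**Figure D3:**
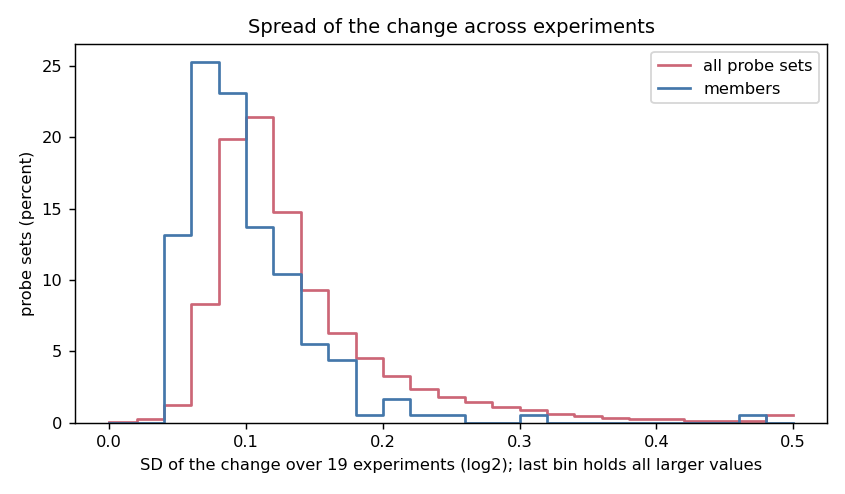
Share of probe sets (percent, y axis) by the SD of their log2 change over 19 experiments (x axis, bins of 0.02), for the members and for all probe sets. The members peak at lower values than all probe sets, with medians of 0.09 and 0.12, and 2 member probe sets are above 0.3.

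Whether a member responded unequally among experiments was asked with an F test on the 57 within-clone changes of the 19 experiments (limma, adjusted over all probe sets). It called 14 of 182 member probe sets (7.69%), beside 16.2% of all probe sets and 29.6% of those above the upper quartile of level. By role these were 5 of 77 probe sets of complex I, 2 of 9 of complex II, 0 of 16 of complex III, 0 of 4 of cytochrome c, 2 of 32 of complex IV, 1 of 31 of complex V and 4 of 13 of the assembly group. The lowest adjusted p belonged to Cox7a1 (1.74e-08), Ndufaf1 (6.53e-06) and Cox6b2 (0.000259). Ndufaf1, Ndufaf5, Ndufaf6 and Ndufaf7, the 4 assembly factors called, act in the building of complex I and are not part of the finished enzyme. Without the clone as a block the F test called 2 of the 182, and without replicate 1 or replicate 3 of every experiment 2 and 3. Without replicate 2 it called 13, of which 8 were among the 14 above. The share of all probe sets called in these refits is not given, nor for the left-out replicates further on. These counts thus do not compare the members with other probe sets.

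Cox7a1 moved in both directions. In the Nrip1 experiment the uninduced arrays read 7.57, 7.07 and 7.30 and the induced arrays 6.27, 5.42 and 6.55. All induced arrays were below all uninduced ones, with a change of -1.23 ± 0.17 (SE, n = 3 clones, limma adjusted p = 0.0603), which missed the threshold within that experiment. In Erg the values were 7.40, 7.39 and 7.47 without induction and 6.71, 6.97 and 6.75 with it. Here Cox7a1 fell (-0.61 ± 0.09, adjusted p = 0.00487). In Sim2 it was 7.85, 7.80 and 7.46 before and 8.46, 8.56 and 8.11 after, and it rose by 0.67 ± 0.10 (adjusted p = 0.0468). That call was lost without the block, with replicates 1 and 2 of the induced arrays crossed, and without replicate 2. In Runx1 Cox7a1 changed by -0.01 ± 0.09.

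Cox6b2 rose in the Aire experiment, from 9.14, 9.39 and 8.68 to 9.83, 9.71 and 9.59 (0.64 ± 0.11, limma adjusted p = 0.0203). The groups did not overlap. In Sim2 it went from 9.25, 8.95 and 8.61 to 9.57, 10.13 and 9.53 (0.81 ± 0.17, adjusted p = 0.0867), and in Pdxk from 9.21, 10.40 and 9.74 to 10.41, 10.66 and 10.69 (0.80 ± 0.16, adjusted p = 0.097). Both missed the threshold. The 5 experiments with 39 or 48 h without Tc had changes of 0.36 to 0.81, while among the 14 with 24 h on the larger array the highest was 0.44 in Gabpa. Duration and transgene cannot be told apart here, since each gene was induced for 1 duration.

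**Figure D4:**
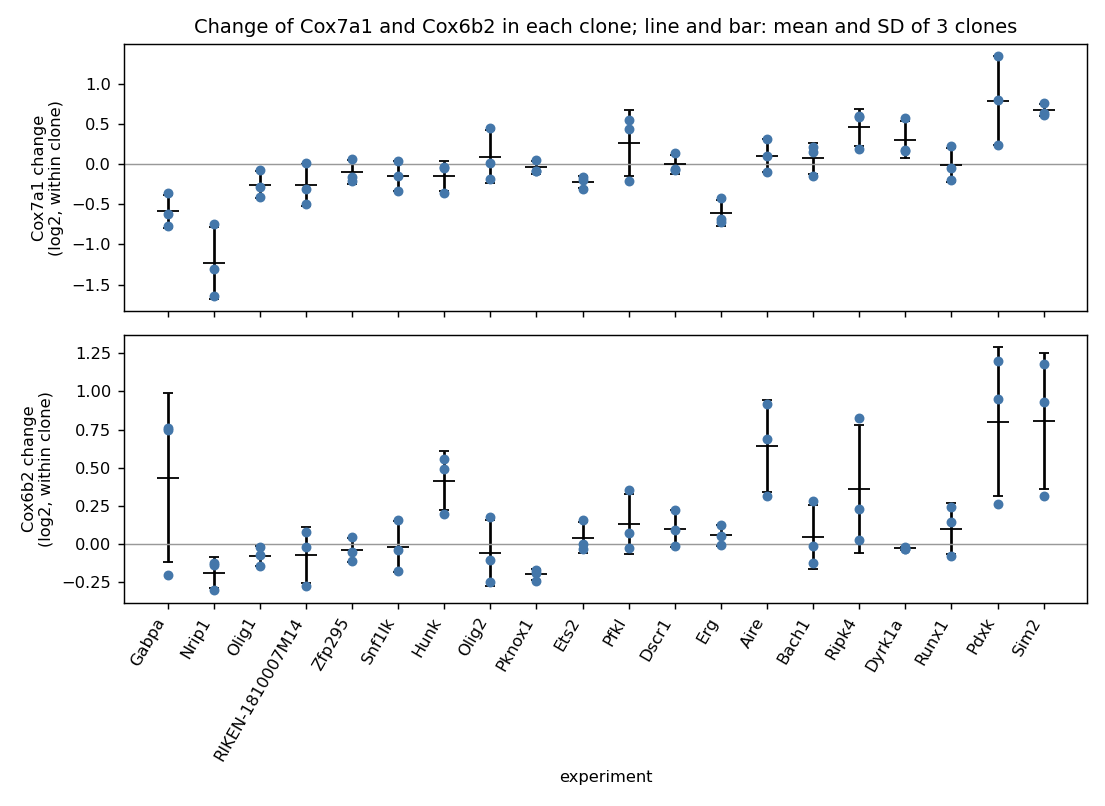
Within-clone log2 change (y axis) of Cox7a1 (top) and Cox6b2 (bottom) in each experiment (x axis), with points for the 3 clones and a line and bar for their mean and SD. Cox7a1 lies lowest in Nrip1, at -1.23, and highest in Pdxk, at 0.79, and Cox6b2 lies highest in Sim2, at 0.81.

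The other tissue-restricted complex IV forms had narrower ranges over the 19 experiments, on probe sets of which several were dim. Cox4i2, known for its link to low oxygen, changed by -0.21 to 0.18 at array levels of 4.70 to 6.5, and the striated muscle form Cox8b by -0.19 to 0.20 at 4.10 to 5.97. The 2 probe sets of Cox6a2, the heart and muscle form, changed by -0.34 to 0.13, and 1 of them was below the lower quartile of all probe sets in 19 of 19 experiments. The testis form Cox8c ranged from -0.41 to 0.25. None of their probe sets passed the F test, but a change in a gene near the floor of the array could be missed. Of the widely used partners, Cox6b1 and Cox7a2 stayed between -0.13 and 0.18 and Cox6a1 between -0.18 and 0.24. Cox8a ranged from -0.34 to 0.41 over its 3 probe sets.

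Atp5j, Atp5o and Ndufv3 have human orthologs on chromosome 21, the chromosome whose genes were overexpressed here. Atp5j and Atp5o, parts of the stalk of complex V, changed by -0.21 to 0.05 and, over 2 probe sets, by -0.34 to 0.20. Ndufv3, an accessory subunit of complex I, ranged from -0.08 in Gabpa to 0.49 in Pdxk and differed among experiments (F test, limma adjusted p = 0.0161). Atp5j, which neighbours Gabpa in the genome, read 12.15, 12.31 and 12.06 in uninduced and 12.19, 12.04 and 12.08 in induced Gabpa arrays, a change of -0.07 ± 0.11 (adjusted p = 0.876).

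In the 3 experiments where members passed the test on their own, they were few. In Aire, 1 of 182 was higher (Cox6b2) and 1 lower, beside 2.45% and 1.48% of all probe sets (3.93% in all). The lower one was Uqcr10, a small subunit of complex III, from 9.004, 9.06 and 9.19 to 8.49, 8.59 and 8.63 (-0.51 ± 0.07, limma adjusted p = 0.0106). Both Aire calls were lost without the block and without replicate 3. In Sim2 the call was Cox7a1 alone, beside 0.643% of all probe sets higher and 0.271% lower (0.914% in all).

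In Erg, 1 of 182 members was higher and 5 lower (3.3% in all), beside 5.71% and 6.28% of all probe sets (12% in all). After Cox7a1 the largest fall was that of Ndufaf1, a complex I assembly factor, from 8.66, 8.67 and 8.91 to 8.04, 8.29 and 8.19 (-0.58 ± 0.09, limma adjusted p = 0.0068). Uqcrq of complex III changed by -0.38 ± 0.08, Ndufaf7, a methyltransferase that acts on complex I, by -0.33 ± 0.08 and Ndufa13 of complex I by -0.33 ± 0.08 (adjusted p = 0.018 to 0.0406). A probe set of Atp5g2, which codes for the c subunit of complex V, was 0.35 ± 0.09 higher, although its groups overlapped. Leaving out replicate 1, 2 or 3 gave 3, 3 and 1 calls.

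Changes shared by all experiments, which withdraw Tc in each case, were tested on 1 mean change per experiment. Of 182 members 0 were higher and 1 lower, beside 0.0488% and 0.00665% of all probe sets, and 18 members (9.89%) passed without adjustment beside 13.4% of all. The member was 1 of the 3 probe sets of Uqcr10, lower in 18 of 19 experiments (mean -0.19 ± 0.03, limma adjusted p = 0.0233). Its other probe sets had means of -0.10 (16 of 19 lower, adjusted p = 0.0834) and -0.02 (12 of 19 lower, adjusted p = 0.684), so the gene's probe sets disagree in size. In Runx1 the 3 probe sets changed by 0.14 to 0.25. The call was lost over the 13 experiments the study calls silent, over those with 24 h, without replicate 2 or 3 of every experiment, and without Bach1, Pdxk or Olig2.

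To ask whether an experiment stood apart, its mean change was set against the mean of the other 18 experiments in 1 fit that pools the spread between clones. These contrasts share arrays with one another, so they are given side by side and not compared. Members passed in 6 of 19 contrasts: 67 calls on 46 probe sets of 34 genes. In the other 13 no member passed (limma), beside 0% of all probe sets in Olig1, RIKEN-1810007M14, Snf1lk and Zfp295, 0.00222% in Dscr1, 0.00665% in Hunk, 0.0111% in Ets2 and 0.0155% in Pknox1. It was 0.0488% in Dyrk1a, 0.051% in Ripk4, 0.071% in Bach1, 0.745% in Aire and 1.68% in Olig2. At an unadjusted p below 0.05 these 13 had 2 to 21 members (1.1% to 11.5%), beside 2.69% to 11.5% of all probe sets. Of the 67 calls, 14 were on the 8 probe sets of the assembly group that were called, and Cox7a1 was called in 5 contrasts, higher in Sim2 and Pdxk and lower in Nrip1, Erg and Gabpa.

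Gabpa is a regulator with a known link to these genes. In that contrast 0 members were higher and 10 lower, beside 4.72% and 4.37% of all probe sets, which makes 5.49% of the members. Of the 3 probe sets of Ndufb9, an accessory subunit of complex I, 2 were lower. The first read 11.64, 11.27 and 11.56 without induction and 11.18, 10.95 and 10.96 with it, and differed from the other experiments by -0.47 ± 0.07 (limma adjusted p = 2.35e-05). The second differed by -0.41 ± 0.08. Cox7a1 went from 8.01, 7.74 and 7.66 to 7.65, 7.11 and 6.88, which was -0.58 ± 0.15 against the others. The complex I assembly factors Ndufaf6 (-0.39 ± 0.08) and Ndufaf7 (-0.38 ± 0.08) and the accessory subunit Ndufa6 (-0.33 ± 0.09) followed. Cox6c of complex IV, Atp5g2, Ndufaf1 and Sdhb made up the remaining calls (-0.31 to -0.24).

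Sdhb and Ndufaf1, whose windows hold the GABP core, are both in this list, but both were also lower in the Erg contrast and higher in that of Sim2. Of the 9 genes called in the Gabpa contrast 6 had a promoter window. Of those 6, 2 held the GABP core and 3 the NRF1 motif, beside 25.3% and 16% of the 75 member genes with a window. Over all members with a window, the 36 probe sets of genes with the GABP core had a median change of -0.10 in the Gabpa experiment, 33 of them below 0, and the 118 without it one of -0.06, 86 of them below 0. The 21 probe sets with the NRF1 motif stood at -0.12 and the 133 without it at -0.06. Other experiments differed in both directions for the GABP core. The medians with and without it were -0.06 and -0.02 in Hunk and 0.02 and 0.07 in Sim2. Those with the core were the higher ones in Bach1 (0.04 and 0.01), Ripk4 (0.05 and 0.02) and Pknox1 (0.02 and -0.01), among others. In Olig1 32 of 36 with the core and 93 of 118 without it were below 0, and in Snf1lk 32 of 36 and 91 of 118. These are descriptions without a test.

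The Gabpa experiment gave no call among all probe sets in its own fit, and its 2 Gabpa probe sets changed by 0.01 ± 0.10 and -0.21 ± 0.13, so that the rise of the transgene was not visible there. Without replicate 3 the contrast called 2 members. Clone medians of the 19 primitive endoderm marker probe sets were 0.19, -0.48 and -0.15, beside 0.03, -0.19 and -0.07 for the members. Both rest on the weakly borne out pairing by replicate number described above. None of those 7 marker genes was above the upper quartile in this experiment, and their mean level was 4.51 to 4.80 in uninduced and 4.35 to 4.71 in induced arrays. The ES marker probe sets had a mean level of 10.19 to 10.24 in uninduced and 10.10 to 10.14 in induced arrays. The part of either marker list in the result was not tested.

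**Figure D5:**
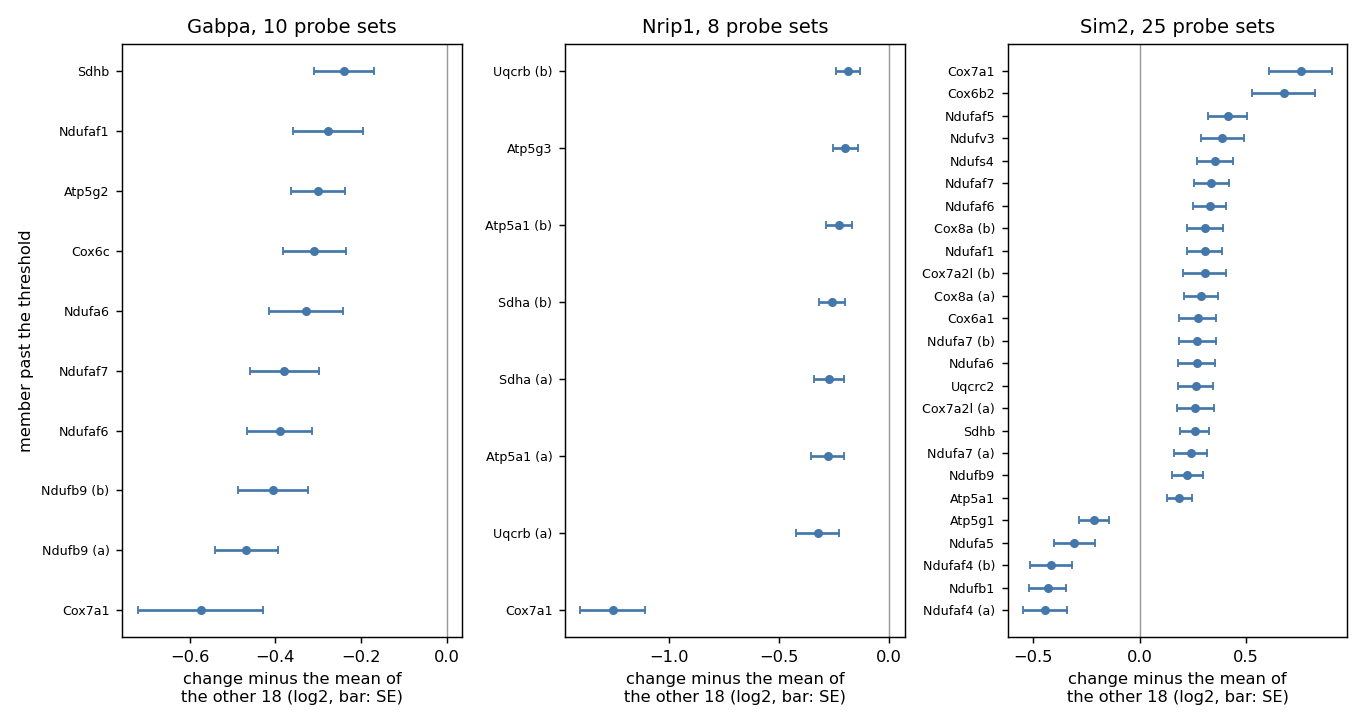
Members past the threshold (y axis, a and b being separate probe sets of a gene) in the contrasts of Gabpa, Nrip1 and Sim2 with the mean of the other 18 experiments, with the difference in log2 change and its SE on the x axis. All points lie below 0 in Gabpa (10) and Nrip1 (8), and 20 of 25 lie above 0 in Sim2.

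Nrip1 codes for a corepressor known for holding down genes of oxidative metabolism. Its contrast had 0 members higher and 8 lower (4.4% of the members), beside 2.24% and 1.68% of all probe sets. Besides Cox7a1 (-1.25 ± 0.15, limma adjusted p = 2.49e-08) these were 2 probe sets each of Sdha, Atp5a1 and Uqcrb and 1 of Atp5g3. Sdha, the flavoprotein of complex II, read 10.56, 10.48 and 10.56 without and 10.32, 10.26 and 10.25 with induction on 1 probe set and differed from the others by -0.26 ± 0.06, and a second of its 4 differed by -0.27 ± 0.07. Atp5a1, the alpha subunit of complex V, differed by -0.28 ± 0.07 and -0.23 ± 0.06. Uqcrb of complex III differed by -0.32 ± 0.10 and -0.19 ± 0.05, and Atp5g3, a further gene of the c subunit, by -0.20 ± 0.06. None of the 77 complex I and 13 assembly group probe sets was called, beside the 2.24% and 1.68% of all probe sets. None of the 6 probe sets of Nrip1 itself was higher in the induced arrays: they changed by -0.59 to 0.00, and 1 was lower against the other experiments (-0.68, adjusted p = 0.000711), so that a rise of the transgene was not visible on these probe sets either. The paper reports the tagged proteins of both Gabpa and Nrip1 on western blots, as said above.

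The calls fell to 3 without Nrip1 replicate 2 and to 5 without replicate 3. In the same experiment 8 of 18 ES marker probe sets were lower against the others and 0 higher, and their mean level was 9.94 to 10.13 in uninduced and 9.37 to 9.92 in induced arrays. Of 4 mesoderm marker probe sets 2 were higher. Their part in the result was not tested, and in bulk RNA fewer cells of a type and less RNA per cell cannot be told apart. Among the regulators, Esrra, an estrogen-related receptor, differed from the other experiments by -0.41 (limma adjusted p = 0.00194).

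Sim2, a neural transcription factor, had the most members called: 20 higher and 5 lower (13.7% of the members), beside 5.16% and 4.14% of all probe sets. Cox7a1 (0.76 ± 0.15) and Cox6b2 (0.68 ± 0.15) led. Among complex I assembly factors 4 were higher, Ndufaf5 by 0.41 ± 0.09, Ndufaf7 by 0.34 ± 0.08, Ndufaf6 by 0.33 ± 0.08 and Ndufaf1 by 0.30 ± 0.08, as were the complex I subunits Ndufv3 (0.39 ± 0.10) and Ndufs4 (0.35 ± 0.08). Ndufaf4, which also acts in complex I assembly, went the other way on both of its probe sets. It read 9.55, 9.43 and 9.47 without and 9.19, 8.84 and 9.04 with induction on 1 of them, -0.44 ± 0.10 against the others (limma adjusted p = 0.0033). Ndufb1 (-0.43 ± 0.09), Ndufa5 (-0.31 ± 0.09) and Atp5g1 (-0.22 ± 0.07) were lower too. Of the 3 probe sets of Cox7a2l, a supercomplex assembly factor, 2 were higher (0.30 ± 0.10 and 0.26 ± 0.09) and the other missed the threshold (0.26 ± 0.10, adjusted p = 0.0878).

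Against the other experiments with 39 h alone, Hunk and Ripk4, the Sim2 contrast called 0 members. That contrast rests on fewer experiments and is less precise, and its share of calls over all probe sets is not given here. The part of duration in the Sim2 calls was not tested. Without replicate 2 it called 5 and without replicate 3 it called 9. In the same contrast 3 of 18 ES marker probe sets were higher and 1 lower, and 1 of 9 neural marker probe sets was lower, and their part in the result was not tested.

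Erg, an ETS family factor, had 6 members higher and 12 lower (9.89% of the members), beside 5.12% and 7.18% of all probe sets. Of the 12, 7 came from the 77 complex I probe sets among the 182 members, beside the 7.18% of all probe sets that were lower. These 7 were 3 of Ndufv1, which binds the flavin, and 1 each of Ndufv2, Ndufs3, Ndufa13 and Ndufa7. Ndufa13 differed by -0.36 ± 0.08 and Ndufs3 by -0.29 ± 0.08. On the other side 2 probe sets of Cycs, the mobile electron carrier, were higher (0.28 ± 0.08 and 0.19 ± 0.06), with Uqcrb (0.34 ± 0.10), Sdha (0.20 ± 0.06), Atp5pb and Ndufa9. Ndufaf1 (-0.60 ± 0.08, limma adjusted p = 2.4e-07) and Cox7a1 (-0.60 ± 0.15) had the lowest differences of the members.

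Other mitochondrial gene lists differed in their share of calls in Erg. Of 156 probe sets for mitochondrial ribosomal proteins 26 fell and 0 rose in the Erg fit itself, a share of 16.7%, and of 55 for assembly factors outside the member list 7 fell and 0 rose, beside the 6.28% and 5.71% above. Of 29 for tricarboxylic acid cycle enzymes 1 rose and 0 fell. Of 38 for regulators 7 rose and 4 fell, and 7 were higher and 5 lower against the other experiments. Against the other experiments Timmdc1, a complex I assembly factor, differed by -0.67 (adjusted p = 4.9e-07), Tfb1m and Tfb2m, which serve the mitochondrial ribosome and transcription, by -0.68 and -0.37 (Tfb1m also by -0.65 on a second probe set), and Tfam, which packages mitochondrial DNA, by -0.46 and -0.29. Gabpb1, the partner of Gabpa, was higher by 0.66 and 0.92, the coactivator Ppargc1b by 0.70, 3 probe sets of Nrip1 by 0.55 to 0.82 and 1 of Yy1 by 0.39. In the Erg fit itself 7 of 18 ES marker probe sets fell, and 6 were lower in the contrast. Their mean level was 10.20 to 10.35 in uninduced and 9.97 to 10.02 in induced arrays, and their part in these results was not tested. Leaving out 1 Erg clone brought the 18 member calls to 7, 6 or 4.

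Pdxk, a kinase that activates vitamin B6, had 5 members higher and 0 lower, beside 2.19% and 0.707% of all probe sets. They were Cox7a1 (0.88 ± 0.15), Cox6b2 (0.67 ± 0.15), Ndufv3 (0.41 ± 0.10), Ndufaf1 (0.38 ± 0.08) and Ndufa6 (0.31 ± 0.09). Clone 1 carried much of it, with Cox7a1 at 6.97 before and 8.32 after, while the other uninduced clones already read 8.29 and 7.78. Without replicate 1 the contrast called 0 members, without replicate 3 it called 1 and without replicate 2 it called 13. In Pfkl, a glycolytic enzyme, 1 probe set of Cox8a was lower (-0.35 ± 0.08) and 0 members higher, beside 0.284% and 0.188%. That call was lost against the silent experiments, against those with the same duration and without replicate 2.

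Runx1, on the smaller array, was set against the other 19 experiments over the probe sets of both arrays, a contrast added after the data were seen. It had 8 of 159 members higher and 1 lower, beside 7.33% and 6.81% of all 22689 probe sets. The higher ones were 3 probe sets of Uqcr10 (0.27 to 0.33), 2 of Sdha (both 0.20), 2 of Atp5a1 (0.20 and 0.18) and 1 of Ndufv2 (0.18), and the lower one was Cox7c (-0.47). In this experiment 10 of 15 ES marker probe sets fell and 2 of 4 mesoderm marker probe sets rose in the own fit, and their part in the result was not tested.

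The neighbouring mitochondrial pathways differed in their share of calls. Of 29 probe sets of tricarboxylic acid cycle enzymes 2 passed the F test (6.9%), against 13 of 55 for assembly factors outside the list (23.6%), 27 of 156 for mitochondrial ribosomal proteins (17.3%) and 9 of 38 for regulators (23.7%), beside the 16.2% of all probe sets. In the Gabpa contrast 5 of 156 mitochondrial ribosome probe sets were higher and 10 lower (9.62%), and 2 of 55 for assembly factors higher and 6 lower (14.5%), beside 9.09% of all probe sets in either direction. In the Sim2 contrast 5 of the 29 cycle probe sets were higher and 0 lower, from Idh3a (0.38 and 0.32), Idh3b (0.23 and 0.21) and Fh1 (0.23). Nubpl, an iron-sulfur carrier for complex I, was higher in the Sim2 contrast (0.65) and lower in that of Gabpa (-0.47).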

How the data were processed

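The authors hybridised RNA of 120 samples to Affymetrix Mouse430_2 (114) and Mouse430A_2 (6) arrays and deposited log2 values that they had made with RMA (affy), per the labels and the study's methods 1 experiment at a time. Levels are therefore compared only within an experiment. Their version numbers are not given in the sources used here. Probe sets were named through the platform annotation: 34958 of 45101 had 1 gene, 932 several and 9211 none on Mouse430_2 (20393, 691 and 1606 of 22690 on Mouse430A_2), and 10 and 8 probe sets with several genes that name a member were left out. The suffix a, s or x, which can mark binding to several transcripts or near-identical copies, was carried by 89 of 182 member probe sets. A probe set of no member had no value in Sim2.

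Induced and uninduced arrays were compared with limma (3.58.1, R 4.3.3), the clone number as a block, the same replicate number being taken as the same clone, since the study used 3 clones per gene. For Sim2 the order of the clones was in doubt, so a crossed pairing was an alternative. Deviations from the group means of same-numbered arrays correlated above 0.1 in 54 of 60 pairs. In Gabpa only 1 of 3 did. P-values were adjusted (Benjamini-Hochberg) over all probe sets of an array. Errors are SE unless given as SD. The F test and the contrasts used within-clone changes. The 3 clones per gene limit the precision. No pair of arrays held identical values. The scripts were tested on simulated data.

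The members, lists and tests were chosen with earlier results of these data known. Members were named by rule: up to 8 per direction in an experiment, moved the same way in all clones, up to 8 in the common response and 6 per direction in a contrast, plus the chromosome 21 orthologs, tissue forms, Cycs and the Sdh genes. Others were named after their values were seen. Alternatives covered the block, replicates, dim probe sets, normalisation, the comparison group and 1 probe set per gene. Promoter sequences are from RefSeq (GRCm38.p6); Sdhc, Cox8c, Uqcrb, Ndufaf6, Atp5a1, Cox4i2, Ndufa2, Cox4i1, Uqcrq, Ndufs1, Cox6c, Cox6a2, Uqcrc2, Ndufb9 and Atp5mpl had no entry. No probe set was named for the mitochondrial genome.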

Additional observations from a re-analysis of the deposited data

Results flagged for a closer look

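The change of 14 member probe sets differed between the 19 experiments in the F test of limma. The adjusted p was 1.74e-08 for Cox7a1, 6.53e-06 for Ndufaf1, 0.000259 for Cox6b2, 0.000579 for 1 probe set of Ndufb9, 0.000597 for Ndufaf6 and 0.000965 for Ndufaf7. It was 0.00368 for 1 probe set of Atp5c1, 0.00565 for Sdhb, 0.00876 for Ndufaf5, 0.0112 for Ndufb1, 0.0161 for Ndufv3, 0.0262 for Ndufa6, 0.0341 for 1 probe set of Sdha and 0.0497 for Ndufb3. Atp5c1, which codes for the gamma subunit of complex V, ranged from -0.30 to 0.48 on this probe set and from -0.18 to 0.15 on a second, which missed the threshold (adjusted p = 0.518). Ndufb3 ranged from -0.21 in Erg to 0.29 in Sim2.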

How the results depend on the processing

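No called member reversed its direction in the alternatives that can change it, such as left-out replicates, other comparison groups or another normalisation. Alternatives such as no block, an unpaired t-test, the crossed pairing or no dim probe sets keep the mean change. The F test has no direction. Of the 9 calls within experiments, all 9 passed without dim probe sets, 5 without the replicate block and 1 under an unpaired t-test with no shared variance. Of the 67 contrast calls, 60 passed against the silent experiments alone and 29 of the 62 that could be set against others of the same duration. Without the replicate block the member calls were 0 in Aire, 0 in Sim2, 1 in Runx1 and, in the F test, 2. With 1 fit over all differences they were 19 in Erg, 14 in Gabpa, 9 in Nrip1, 11 in Pdxk, 1 in Ripk4, 1 in Pfkl and 23 in Sim2. The shares of all probe sets called in that fit, without dim probe sets and without a replicate are not given here. Such counts alone do not show a response particular to the members. The unpaired t-test gave 0 in Aire, 3 in Erg, 0 in Sim2 and 3 in Runx1. Over all probe sets it called 0 in Aire, 413 in Erg, 1 in Sim2 and 1443 in Runx1. It is not the Bayesian t-test (Cyber-t) named in the paper's results. Without dim probe sets there were 4 in Aire and 2 in Runx1, after another quantile normalisation 1 in Runx1, and with Sim2 replicates 1 and 2 crossed 0. Leaving out a replicate gave 0 to 3 in Aire, 1 to 3 in Erg, 0 to 1 in Gabpa, 0 to 1 in Hunk, 0 to 13 in Pdxk, 0 to 1 in Sim2 and 0 to 2 in Runx1. The common response gave 0 in the silent experiments, 0 with 24 h, 0 to 2 when 1 experiment or replicate was left out and 0 with the highest probe set per gene. The F test gave 2 to 13 without a replicate. The contrasts gave 1 for Aire and 0 for Pfkl against the silent experiments, and 0 for Pfkl and 0 for Sim2 at the same duration. Such contrasts rest on fewer experiments and are less precise. Without a replicate they gave 4 to 7 in Erg, 2 to 14 in Gabpa, 3 to 6 in Nrip1, 0 to 13 in Pdxk, 0 to 2 in Pfkl and 5 to 19 in Sim2. The highest probe set per gene gave 1 in Aire's own fit and, in the contrasts, 10 in Erg and 5 in Nrip1. The causes were not tested. With 3 clones per gene the number of arrays limits the precision of every value.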
